A study of Mus musculus with 22 samples.

Results

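The genes described here are the ephrins and their Eph receptors, taken by a rule on gene names that lists the prefixes of ephrins (*Efna*, *Efnb*), Eph receptors (*Epha*, *Ephb*), semaphorins, plexins, netrins, Slits, Robo and Unc5 receptors, and the names *Nrp2*, *Dcc* and *Cxadr*. The rule matched 13 of the 998 genes of the panel, all of them ephrins or Eph receptors and all kept here, 5 ligands (*Efna1*, *Efna4*, *Efna5*, *Efnb1* and *Efnb2*) and 8 receptors (*Epha2*, *Epha3*, *Epha4*, *Epha7*, *Ephb2*, *Ephb3*, *Ephb4* and *Ephb6*). CosMx is an imaging assay that counts single RNA molecules with barcoded probes inside segmented cells of a tissue section. It was applied to 22 sections of 10 µm from 2 mouse embryos at E10, 13 sections labelled Knockout (*Nr4a1*-/-*Nr4a2*-/-, which lacks both orphan nuclear receptors) and 9 labelled Wildtype (*Nr4a1*+/+*Nr4a2*+/+). Both came from lines on the C57BL/6J background. Each genotype was represented by 1 embryo, so the sections are repeated measurements of 2 embryos, and a p-value between genotypes measures only the spread between sections.

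Ephrins are ligands held on the cell surface, and Eph receptors are receptor tyrosine kinases on the neighbouring cell. Ephrin-A proteins are anchored by a lipid and mainly bind EphA receptors, whereas ephrin-B proteins span the membrane and mainly bind EphB receptors, and the signal can run into both cells. In the embryo these contacts guide axons, steer migrating neural crest, set boundaries between somites, and separate arteries, which carry ephrin-B2, from veins, which carry EphB4.

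The 22 sections held 37575 cells, of which 37570 had at least 10 transcripts and 10 genes. The sections labelled Knockout held 169038 to 887904 transcripts (median 366514) and those labelled Wildtype held 211614 to 820265 (median 406900). Cells were placed in groups by the transcripts of a single gate gene. *Cdh5* (VE-cadherin) at 3 or more took 1139 cells, with 6 to 110 cells in a section, and 13 of 14 other endothelial markers were at least 1.5-fold higher there (median 2.46-fold), while no marker of mesenchyme, neural crest, smooth muscle, epithelium, erythroid cells, neural cells or macrophages was. *Acta2* at 3 or more (895 cells), *Epcam* at 2 or more (255 cells) and *Hbb* at 3 or more (874 cells) raised 4 of 6 smooth muscle, 4 of 4 epithelial and 3 of 3 erythroid markers to that level. The *Acta2*-gated cells also raised 5 of 10 mesenchyme markers (*Col1a1* 4.90-fold, *Lum* 4.19-fold, *Col3a1* 3.11-fold, *Col1a2* 2.71-fold and *Dcn* 1.94-fold) and 2 of 4 epithelial markers (*Krt8* 2.27-fold and *Krt18* 1.54-fold), so they are called by their gate as well. *Twist1* at 4 or more (3406 cells), *Sox10* at 2 or more (1070 cells) and *Sox2* at 2 or more (879 cells) raised only 0 of 10, 1 of 3 and 1 of 4 markers of mesenchyme, neural crest and neural cells, and those cells are likewise called by their gate below. A cell that met more than 1 gate (1724 cells) was placed in no group. Cell names repeat between sections (3409 of 34161), but no pair of sections and no pair of cells held the same counts.

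*Efna1*, *Efnb2* and *Ephb4* had a higher share of the transcripts in *Cdh5*-gated cells, and their promoters, 250 bases before to 50 bases after a RefSeq start (build GRCm38.p6), are printed to show what letters stand at their starts. Capitals mark matches, on either strand, of 6 motifs. Among them are the NBRE, with the letters AAAGGTCA, which NR4A proteins bind as monomers, and the site of RBPJ, the DNA-binding partner of Notch, with the letters TGGGAA. Transcription factors of the ETS family, many of them active in endothelium, were given the letters CCGGAA. The general promoter elements searched were the TATA box, written TATAAA, the CCAAT box under its own letters, and the GC box of Sp1 family proteins, written GGGCGG. No match overlapped another. *Efna1* has a further start inside the gene, and the outermost is shown.
*Efna1*, chr3:89280902-89281201, minus strand: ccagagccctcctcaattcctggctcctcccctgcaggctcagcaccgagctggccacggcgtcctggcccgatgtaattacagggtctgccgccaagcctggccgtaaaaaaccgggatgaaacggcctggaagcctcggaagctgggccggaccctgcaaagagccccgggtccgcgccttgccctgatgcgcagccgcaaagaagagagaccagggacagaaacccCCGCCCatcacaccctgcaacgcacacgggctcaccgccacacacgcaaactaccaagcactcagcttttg
*Efnb2*, chr8:8661193-8661492, minus strand: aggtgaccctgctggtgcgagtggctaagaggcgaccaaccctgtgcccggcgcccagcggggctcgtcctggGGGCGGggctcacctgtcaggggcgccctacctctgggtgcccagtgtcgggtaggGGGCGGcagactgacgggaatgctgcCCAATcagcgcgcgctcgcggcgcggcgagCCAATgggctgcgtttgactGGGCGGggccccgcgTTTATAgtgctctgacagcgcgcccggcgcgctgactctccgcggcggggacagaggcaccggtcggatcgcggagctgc
*Ephb4*, chr5:137349859-137350158, plus strand: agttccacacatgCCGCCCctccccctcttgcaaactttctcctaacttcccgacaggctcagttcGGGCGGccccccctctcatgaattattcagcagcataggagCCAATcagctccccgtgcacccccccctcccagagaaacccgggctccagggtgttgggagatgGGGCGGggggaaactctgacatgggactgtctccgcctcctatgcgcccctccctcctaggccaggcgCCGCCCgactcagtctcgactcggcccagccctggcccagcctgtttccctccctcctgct
The promoter of *Efnb2* was the only one of the 15 promoters of the 13 genes with a TATA box, which lay at -30 in the reverse orientation and stands in 13.6% of all 32851 promoters of the same length. It also carried 3 GC boxes and a pair of CCAAT boxes, and *Ephb4* carried 4 GC boxes and 1 CCAAT box. GC boxes stood in the promoters of 9 of the 13 genes (35.7% of all promoters) and CCAAT in those of 7 (37.4%). The NBRE was found in none of the 13 (1.51% of all promoters), the RBPJ letters in *Efnb1*, *Epha4* and *Epha7* (25.6%), and the ETS letters in *Ephb2* and *Ephb6* (14.9%). The 15 promoters held 10 to 38 CpG dinucleotides (median 20, against 7 over all promoters), with 35 in that of *Efnb2*. A match describes letters in this window and does not show that a factor binds there.

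Over all cells, rates are given as transcripts of a gene per 10000 transcripts of the panel. Rates of different genes are not compared as amounts of RNA, since probes differ in efficiency. Among the ligands, the pooled rate was 5.98 for *Efna1*, 8.55 for *Efna4*, 4.48 for *Efna5*, 13.6 for *Efnb1* and 7.05 for *Efnb2*. Among the receptors it was 4.89 for *Epha2*, 9.69 for *Epha3*, 6.82 for *Epha4*, 10.9 for *Epha7*, 8.67 for *Ephb2*, 6.16 for *Ephb3*, 14.3 for *Ephb4* and 4.44 for *Ephb6*. At least 1 transcript was seen in 9.17% of cells for *Ephb6* and in 23.7% for *Ephb4*, with the other genes in between. The 49 dimmest genes of the panel averaged 2.12 to 2.88 per 10000 in a section, and the median ratio of the 13 genes to that level ran from 1.78 for *Efna5* to 5.55 for *Ephb4*. Part of each count can therefore be background at the level of the dimmest genes, and that share is larger for *Efna5*, *Ephb6* and *Epha2* than for *Ephb4*, *Efnb1* and *Epha7*.

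To ask which cells carried each gene, transcripts were summed per section over the gated cells and over all other cells, and compared with the section as a block (quasi-likelihood test of edgeR, p-values adjusted by Benjamini-Hochberg over all genes). A gene was called where its adjusted p was under 0.05 and its change at least 1.5-fold, and the gate gene was left out. In *Cdh5*-gated cells the ligands *Efna1* and *Efnb2* rose and passed both limits, the receptor *Ephb4* was 1.35-fold higher, and *Efnb1*, *Ephb2*, *Epha4* and *Epha7* were lower at less than 1.5-fold. This made 2 of 13 genes called, beside 6.32% of the 997 genes tested (4.51% higher). With the adjusted p alone, 3 of 13 were higher, beside 11% of all genes, and 4 of 13 lower, beside 8.83%.

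*Efna1* encodes ephrin-A1, a ligand first found in cytokine-treated endothelium. Its rate over the 21 sections with at least 10 *Cdh5*-gated cells ran from 5.21 to 16.2 (median 9.69) in those cells and from 4.05 to 8.83 (median 5.72) in other cells. The ranges overlapped, but the gated cells were higher in 20 of 21 sections. The mean was 10.2 ± 2.91 (SD, n = 21) against 5.77 ± 1.13, a log2 fold change of 0.84 ± 0.10 (SE) with an edgeR adjusted p of 2.22e-12. At least 1 *Efna1* transcript was found in 27.7% of *Cdh5*-gated cells (95% Wilson interval 25.2 to 30.4, counting error only), in 15.3% of *Twist1*-gated cells and in 8.26% of cells in no gate. The median cell of these groups held 397, 421 and 132 transcripts. Thinning to 100 transcripts left out shallower cells, 33 of 1139 *Cdh5*-gated, 95 of 3406 *Twist1*-gated and 11558 of 27328 cells in no gate. In the cells kept the shares after thinning were 8.32% (6.83 to 10.1), 4.44% and 5.42% (5.07 to 5.78). The same cells were left out for every gene thinned below.

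*Efnb2* encodes ephrin-B2, the ligand that marks arterial endothelium. Its rate ran from 6.44 to 19.3 (median 10.8) in *Cdh5*-gated cells and from 4.72 to 8.53 (median 6.55) in other cells. It was higher in the gated cells in all 21 of these sections, and the highest value came from the section labelled Knockout 1. The mean was 10.9 ± 2.96 against 6.68 ± 1.00, with a log2 fold change of 0.70 ± 0.09 (edgeR adjusted p = 1.78e-10). After thinning to 100 transcripts, 9.31% (7.74 to 11.2) of *Cdh5*-gated cells kept an *Efnb2* transcript, against 6.02% (5.66 to 6.41) of cells in no gate and 5.13% of *Twist1*-gated cells (29.7%, 9.95% and 20.3% before thinning). With the gate lowered to 2 *Cdh5* transcripts the log2 fold change was 0.58, just below the 1.5-fold limit.

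*Ephb4* encodes the receptor for ephrin-B2 that marks veins. Its rate ran from 6.13 to 24.1 (median 17.3) in *Cdh5*-gated cells and from 10.9 to 16.7 (median 13.7) in other cells. It was higher in 20 of 21 sections, and the means of 17.8 ± 4.0 and 13.7 ± 1.82 gave a log2 fold change of 0.43 ± 0.07 (edgeR adjusted p = 6.86e-07), which is under the 1.5-fold limit. After thinning, 15.8% (13.8 to 18.1) of *Cdh5*-gated cells and 12.4% (11.9 to 12.9) of cells in no gate kept an *Ephb4* transcript (43.5% and 18% before thinning). The 3 differences had the same direction in the sections of each embryo taken alone, with log2 fold changes of 0.71, 0.60 and 0.33 for *Efna1*, *Efnb2* and *Ephb4* in the sections labelled Wildtype and of 0.96, 0.80 and 0.52 in those labelled Knockout.

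**Figure D1:**
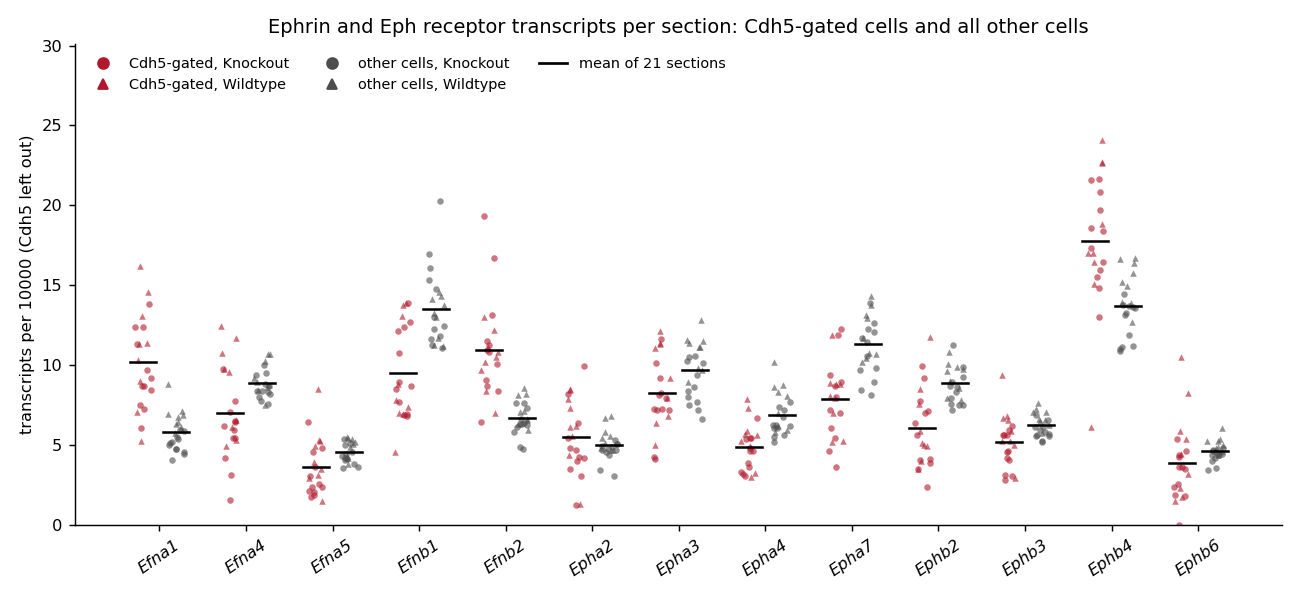
Transcripts per 10000 (*Cdh5* left out) of each of the 13 genes in *Cdh5*-gated cells (red) and in all other cells (grey). Each point is 1 of 21 sections, circles are sections labelled Knockout, triangles sections labelled Wildtype, and the black line is the mean. The red points of *Efna1* (5.21 to 16.2) and *Efnb2* (6.44 to 19.3) reach above the grey ones, whereas those of *Efnb1* and *Ephb2* lie mostly below.

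The genes with a lower share in *Cdh5*-gated cells were 1 ligand and 3 receptors. *Efnb1*, a ligand on the X chromosome known from craniofacial patterning, ran from 4.54 to 13.9 (median 8.69) in the gated cells and from 11.1 to 20.3 (median 13.0) in the others, and was higher in the gated cells in 2 of 21 sections (log2 fold change -0.49 ± 0.09, edgeR adjusted p = 5.22e-06). *Ephb2*, an EphB receptor of axons and crypt epithelium, ran from 2.35 to 11.8 (median 5.62) against 7.14 to 11.3 (median 8.65), again higher in 2 sections (-0.55 ± 0.10, edgeR adjusted p = 6.85e-06). The ranges of both genes overlapped between the cells, with most sections apart. *Epha4*, which binds ligands of both classes, had a log2 fold change of -0.49 ± 0.11 (edgeR adjusted p = 0.000147, higher in 1 section), and *Epha7*, a receptor of the neural tube, of -0.41 ± 0.10 (edgeR adjusted p = 0.000539, higher in 4). The other 6 genes did not pass, with log2 fold changes of -0.26 for *Efna4*, -0.33 for *Efna5*, 0.21 for *Epha2*, -0.22 for *Epha3*, -0.23 for *Ephb3* and -0.24 for *Ephb6* (edgeR adjusted p from 0.0653 to 0.288). The median over the 13 genes was -0.24, against -0.01 over all genes. In cells with 100 to 500 transcripts, a range chosen after seeing the data, *Ephb2* (-0.60) and *Epha4* (-0.64) also passed the 1.5-fold limit, and *Efna1* and *Efnb2* stayed called (0.91 and 0.77).

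Of 8 arterial genes, the Notch ligand *Dll4*, its receptor *Notch1* and the Notch target *Hey1* were called in *Cdh5*-gated cells, with log2 fold changes of 1.08, 0.95 and 0.79. *Hey2* (0.55) and *Jag2* (0.38) passed the adjusted p alone, whereas *Cxcr4* (0.24), *Jag1* (0.13) and *Hes1* (-0.19) did not, and the median of the list was 0.47. Of 14 genes that act in Eph signaling inside the cell, none was called, and the Src family kinases *Fyn* (0.53), *Lyn* (0.39) and *Yes1* (0.26) passed the adjusted p alone (median of the list 0.04). *Fyn* had a mean rate of 13.0 ± 2.85 in the gated cells and 9.46 ± 1.56 in the others and was higher in 19 of 21 sections (edgeR adjusted p = 4.98e-08).

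In *Twist1*-gated cells 0 of the 13 genes were called, beside 1.4% of all genes. With the adjusted p alone 4 of 13 were higher (9.83% of all genes) and 2 lower (6.82%). *Epha3*, a receptor for ephrin-A5, came closest, with rates from 7.65 to 20.7 (median 12.9) in the gated cells and from 6.70 to 12.1 (median 8.82) in the others. It was higher in 21 of 21 sections, and the means of 12.9 ± 2.96 and 8.85 ± 1.47 gave a log2 fold change of 0.58 ± 0.06 (edgeR adjusted p = 2.89e-13), a 1.497-fold change that fell just short of the limit. *Epha3* passed it with the gate raised to 5 (0.59) and in the sections labelled Knockout alone (0.59). After thinning, 11.1% (10.0 to 12.2) of *Twist1*-gated cells, 8.14% of *Cdh5*-gated cells and 8.25% of cells in no gate kept an *Epha3* transcript (33.6%, 22.4% and 12.3% before thinning).

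*Epha4* ran from 4.79 to 17.7 (median 7.79) in *Twist1*-gated cells and from 4.24 to 9.12 (median 6.07) in the others, and was higher in 17 of 21 sections (log2 fold change 0.41 ± 0.07, edgeR adjusted p = 4.52e-06). *Ephb3*, an EphB receptor, had means of 6.85 ± 1.61 and 5.94 ± 0.745 (0.25 ± 0.07, edgeR adjusted p = 0.0038, higher in 15 sections), and *Efna4*, an ephrin-A ligand, of 9.31 ± 2.31 and 8.55 ± 0.948 (0.18, edgeR adjusted p = 0.0332, higher in 13). For both genes the difference of the means was smaller than the SD over sections in the gated cells, and for *Ephb3* it was larger than the SD in the others. *Efna1* (-0.24, edgeR adjusted p = 0.0121) and *Efnb2* (-0.22, edgeR adjusted p = 0.0234), the pair of ligands called in *Cdh5*-gated cells, had lower shares here, and *Ephb4* did not pass (0.08, edgeR adjusted p = 0.35). Of the Eph signaling genes *Rac1* (0.24), *Csk* (0.23) and *Abl1* (0.16) were higher and *Fyn* (-0.18) lower by adjusted p, and of the arterial genes *Dll4* (-0.32) and *Notch1* (-0.30) were lower, all below 1.5-fold.

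In *Sox10*-gated cells none of the 13 genes was called (1.3% of all genes) and none passed the adjusted p alone (5.22% of all genes in either direction). The largest differences were 0.20 ± 0.09 for *Ephb2* (means 9.87 ± 3.35 and 8.5 ± 1.12, higher in 16 of 22 sections, edgeR adjusted p = 0.265), -0.22 ± 0.09 for *Epha3*, -0.22 ± 0.12 for *Epha4* and -0.21 ± 0.09 for *Epha7*. The gate left 23 to 106 cells in a section. Of the Eph signaling genes, *Ptk2* (focal adhesion kinase, 0.34) and *Rac2* (0.31) had higher shares by adjusted p, and of the arterial genes none did.

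In *Acta2*-gated cells none of the 13 was called (4.61% of all genes), and 2 were higher and 2 lower by adjusted p alone (7.72% and 3.91% of all genes). *Epha7* ran from 7.77 to 33.9 (median 11.8) in the gated cells and from 7.88 to 17.6 (median 10.8) in the others, with a log2 fold change of 0.41 ± 0.09 (edgeR adjusted p = 0.000647, higher in 13 of 21 sections). *Efnb2* ran from 4.5 to 15.2 (median 7.85) against 4.88 to 8.49 (median 6.75), with 0.40 ± 0.10 (edgeR adjusted p = 0.00322, higher in 13 sections). The groups overlapped for both genes. Scaling by library size alone shifted the median of all genes here by -0.14, and *Efnb2* then had 0.27 (edgeR adjusted p = 0.0709). *Efna4* (-0.38 ± 0.11, edgeR adjusted p = 0.011) and *Epha3* (-0.36 ± 0.12, edgeR adjusted p = 0.0317) had lower shares and were higher in the gated cells in 2 sections each. *Hes1* (0.33) was the only gene of the arterial list, and none of the Eph signaling list, to pass the adjusted p.

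In *Hbb*-gated cells none of the 13 was called (5.62% of all genes), and 3 were lower by adjusted p alone (13.2% of all genes), namely *Epha7* (-0.51 ± 0.11, edgeR adjusted p = 5.11e-05), *Epha3* (-0.44 ± 0.11, edgeR adjusted p = 0.00111) and *Efnb1* (-0.34 ± 0.11, edgeR adjusted p = 0.0118). *Epha7* ran from 4.64 to 15.7 (median 7.51) against 8.12 to 19.2 (median 11.4) and was higher in the gated cells in 3 of 22 sections. Of the Eph signaling genes 6 of 14 were also lower and 1 higher by adjusted p, from -0.45 for *Akt1* to 0.29 for *Rac2*, and of the arterial genes *Hes1* (-0.44) and *Notch1* (-0.34) were lower. In *Epcam*-gated cells (10 sections) none of the 13 was called (3.51% of all genes) or passed the adjusted p alone (3.71%), the smallest edgeR adjusted p being 0.429 for *Epha3* (-0.44 ± 0.22), and *Hes1* (0.79) was the only called gene of the 2 lists.

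In *Sox2*-gated cells none of the 13 was called (4.71% of all genes), and 1 was higher by adjusted p alone (3.71% of all genes). *Ephb2* ran from 3.64 to 20.01 (median 11.7) in the gated cells and from 6.93 to 10.3 (median 8.29) in the others. The ranges overlapped, the gated cells were higher in 15 of 20 sections, and the means of 11.8 ± 4.41 and 8.38 ± 1.11 gave 0.57 ± 0.15 (edgeR adjusted p = 0.00388). Scaling by library size alone shifted the median of all genes by -0.10 here and left *Ephb2* at 0.47 (edgeR adjusted p = 0.0353), and DESeq2 put it at 0.60, past the 1.5-fold limit. Over all 10 alternatives *Ephb2* ran from 0.17 to 0.78 (adjusted p from 0.00146 to 0.78, edgeR or DESeq2) and was called in 4. It was called in the sections labelled Knockout alone and not in those labelled Wildtype alone. The arterial genes *Notch1* (1.22), *Cxcr4* (0.67) and *Hey1* (0.66) were called in these cells, and no Eph signaling gene passed the adjusted p.

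**Figure D2:**
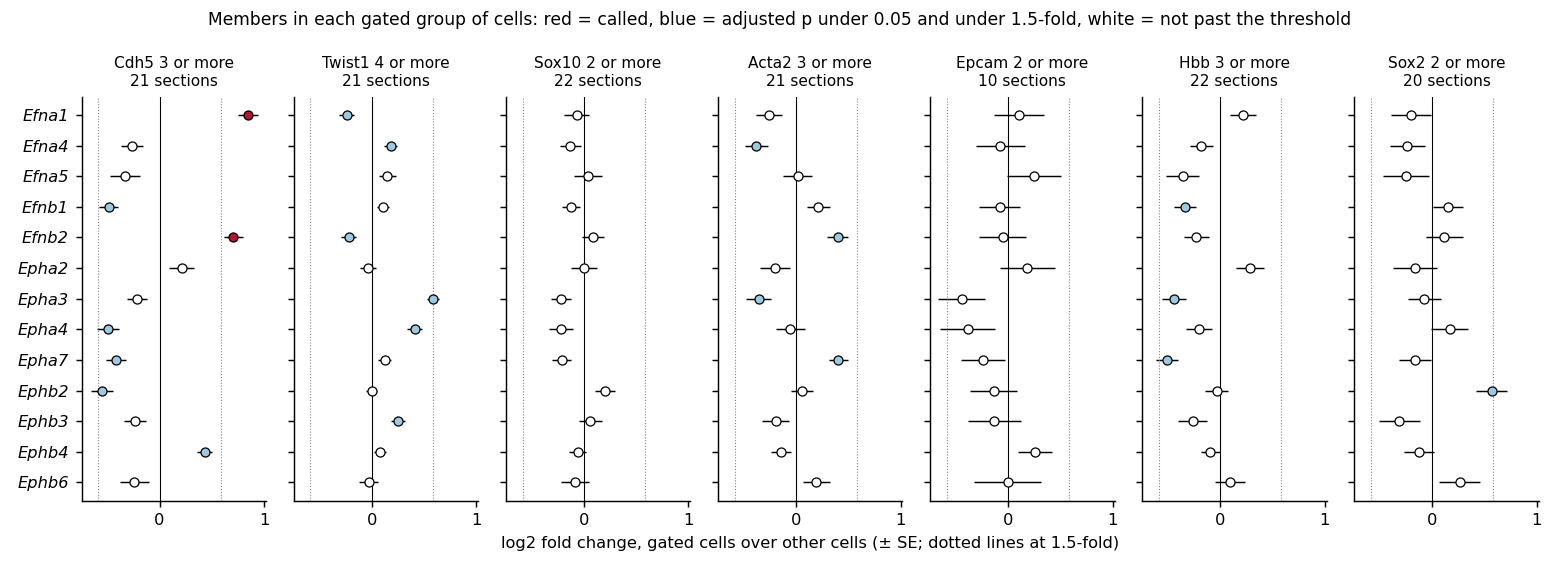
Log2 fold change (± SE) of each of the 13 genes in 7 gated groups of cells over all other cells, 1 panel for each gate, with dotted lines at 1.5-fold. Red marks a called gene, blue an adjusted p under 0.05 below 1.5-fold, and white neither. The red points are *Efna1* (0.84) and *Efnb2* (0.70) in *Cdh5*-gated cells, and *Epha3* in *Twist1*-gated cells (0.58) lies at the dotted line.

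Cells with at least 2 transcripts of each gene were then compared with cells that had none, over 997 genes with the gene itself left out. The number of called genes was 4 (0.401%) for *Efna1* and *Efnb2*, 3 (0.301%) for *Efnb1*, 2 (0.201%) for *Epha2*, *Epha3* and *Epha7*, 1 (0.1%) for *Efna4*, *Efna5*, *Epha4*, *Ephb3*, *Ephb4* and *Ephb6*, and 0 for *Ephb2*, with 77 genes for the last by edgeR's adjusted p alone. *Efna1*-positive cells were higher in *Cdh5* (log2 fold change 0.69), the surface marker *Cd34* (0.61) and *Dll4* (0.59), each in 20 or 21 of 22 sections. *Efnb2*-positive cells were higher in *Cdh5* (0.72), the basement membrane collagens *Col4a1* (0.61) and *Col4a2* (0.61), and the smooth muscle gene *Tagln* (0.60). *Efnb1*-positive cells were higher in the fibrillar collagen *Col1a1* (0.66) and *Epha2*-positive cells in the TNF receptor family gene *Tnfrsf4* (0.61, higher in 21 of 21 sections). Most of the other called genes were *Sox2* or the hemoglobin probe *Hba-a1/2*, which fell in the positive cells, for example *Sox2* by 0.88 with *Ephb4* and *Hba-a1/2* by 1.13 with *Epha7*. Cells with at least 2 transcripts had median totals of 437 to 508 and those with none 146 to 182, and *Sox2*-gated cells had a median of 215, and the part of depth in these differences was not tested.

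Among the 13 genes themselves no pair reached 1.5-fold in that comparison. *Ephb3* was higher in *Epha3*-positive cells (0.44, edgeR adjusted p = 3.15e-06) and *Epha3* in *Ephb3*-positive cells (0.45, edgeR adjusted p = 5.99e-05). *Epha2* was higher in *Ephb2*-positive cells (0.34), *Efna1* in *Efnb2*-positive (0.33) and in *Efna4*-positive cells (0.27), and *Epha4* in *Epha7*-positive cells (0.22). *Epha7* was lower in *Efna1*-positive (-0.34) and *Ephb4*-positive cells (-0.20), and *Epha3* (-0.24) and *Efnb1* (-0.20) in *Efna1*-positive cells.

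Within *Cdh5*-gated cells, those with an *Efnb2* transcript (338 cells) were compared with those without (801 cells) in 17 sections, over the 231 genes that passed the filter on low counts. *Tagln*, an actin-binding protein of smooth muscle, rose from a mean of 6.61 ± 3.84 to 11.6 ± 3.45 per 10000 and was higher in 15 of 17 sections (log2 fold change 0.81 ± 0.19, edgeR adjusted p = 0.00245). *Mecom*, a zinc finger transcription factor of arterial and hematopoietic stem cells, rose from 8.66 ± 3.38 to 12.8 ± 4.86 and was higher in 13 sections (0.60 ± 0.17, edgeR adjusted p = 0.0149). These were the only called genes (0.866%), and both lost the call when the gate was lowered to 2 *Cdh5* transcripts (0.45 and 0.48). Of the 4 arterial genes that passed the filter, *Dll4* had 0.56 (edgeR adjusted p = 0.0372, below 1.5-fold), *Hey1* 0.50 (0.0813), *Notch1* 0.45 (0.0743) and *Jag1* 0.07 (0.847), with a median of 0.47 against 0.03 over all genes. Of the ephrins and receptors, *Efna1* (0.33, edgeR adjusted p = 0.26), *Efnb1* (-0.28, 0.433) and *Ephb4* (-0.09, 0.80) did not pass. The cells with *Efnb2* had a median of 474 transcripts and those without 354.

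The same comparison for *Ephb4* (496 cells with and 643 without, median totals 469 and 339, in 19 sections) called 0 of 215 genes with edgeR, beside 17 at an unadjusted p under 0.05 (7.91%), and 0 with DESeq2. *Efnb2* was at -0.12 (edgeR adjusted p = 0.942), *Efnb1* at -0.04 and *Efna1* at 0.00.

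Whether ligands and receptors were found in the same cells was described by the number of cells with both genes over the number expected from each gene's rate in the section and each cell's total. A pair was called where the ratio was at least 1.5 and the observed number was above the expected one in at least 17 of 22 sections. None of the 78 pairs reached that ratio, and of all 497503 pairs of the panel 4 (0.000804%) were called. The median ratio was 1.00 for the 78 pairs and 1.02 for the panel. The ratio of *Efnb2* and *Ephb4*, the arterial ligand and its venous receptor, was 1.01 over all cells, with 1977 cells observed and 1960 expected. In *Cdh5*-gated cells 166 were observed and 169.8 expected, a ratio of 0.978 (exact Poisson 95% interval 0.834 to 1.14, counting error only), and in *Twist1*-gated cells 315 and 317.1, or 0.993 (0.887 to 1.11). In these *Cdh5*-gated cells a shortage or excess of double-positive cells beyond those bounds was not seen, and smaller ones were not detectable at this depth.

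The highest ratios over all cells were 1.16 for *Efna1* and *Epha2*, a ligand and its preferred receptor (810 observed, 701 expected, above expectation in 21 of 22 sections), 1.15 for *Epha2* and *Ephb2* (1158 and 1006, 20 sections) and 1.13 for *Efna1* and *Efna4* (1206 and 1071, 19 sections). The lowest was 0.941 for *Efna5* and *Epha7*. Within *Twist1*-gated cells the interval left out 1 for 3 of the 78 pairs, beside 3.81% of all pairs of the panel, a like share. These were *Epha2* and *Ephb2* (1.17, 1.00 to 1.34), *Epha3* and *Ephb3* (1.12, 1.01 to 1.247) and *Efna4* and *Epha7* (0.890, 0.790 to 0.998). Within *Cdh5*-gated cells it did for none of the 78, beside 1.42% of all pairs. The intervals were not adjusted for the number of pairs.

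**Figure D3:**
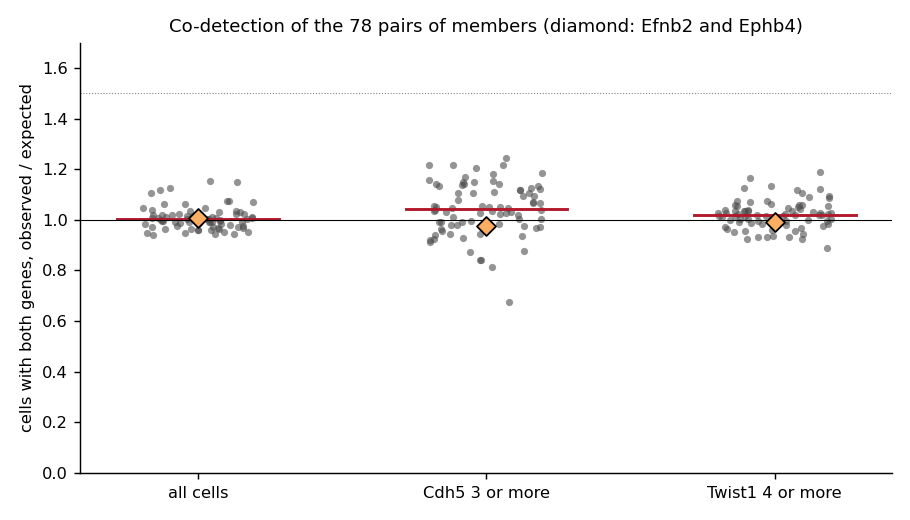
Observed over expected number of cells with both genes, for the 78 pairs of the 13 genes, in all cells, *Cdh5*-gated cells and *Twist1*-gated cells. Each point is a pair, the red line the median, the diamond *Efnb2* with *Ephb4* (1.01, 0.978 and 0.993), the solid line a ratio of 1 and the dotted line 1.5, which no pair reached.

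The genotypes were compared as sections labelled Knockout over sections labelled Wildtype. For the targeted genes no difference passed the test. *Nr4a1* ran from 1.74 to 2.65 per 10000 in the former and from 2.29 to 3.20 in the latter (log2 fold change -0.05 ± 0.07, edgeR adjusted p = 0.716), and *Nr4a2* from 3.08 to 5.09 and from 3.37 to 6.13 (0.03 ± 0.09, edgeR adjusted p = 0.86). Whether the probes lie within the deleted parts was not given in the sources used here, so these values are no check of the labels. *Nr4a1* also lay at the level of the 49 dimmest genes of the panel (2.12 to 2.88 per 10000), and whether its counts stand above background was not tested. The files carry a number, 1 or 2, that may stand for a slide. It is nested in the embryo, so that slide and embryo cannot be told apart.

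Over all cells 0 of the 13 genes passed an adjusted p of 0.05 (edgeR), beside 12.5% of 998 genes. *Efnb1* came closest, with rates of 10.6 to 19.3 (median 12.01) in the sections labelled Knockout and 10.7 to 14.2 (median 12.9) in those labelled Wildtype, which overlapped. Its log2 fold change was 0.34 ± 0.12 (edgeR adjusted p = 0.0544). It passed with DESeq2 (adjusted p = 0.0302) and without any 1 of 6 sections (Knockout 1, 5, 6, 7 or 13 or Wildtype 1), with a range of 0.26 to 0.37 over the sections left out (edgeR adjusted p from 0.0239 to 0.112). Within files numbered 1 it was 0.15 ± 0.12 and within files numbered 2 it was 0.54 ± 0.17, and with library size alone it was 0.06 (edgeR adjusted p = 0.583). *Efna4* (0.16 ± 0.07, edgeR adjusted p = 0.124) was -0.05 within files numbered 1 and 0.38 within files numbered 2, where it passed (edgeR adjusted p = 0.00946). *Ephb4* (0.08 ± 0.09) was -0.16 and 0.33 in the same order.

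The direction of these differences followed the scaling. After TMM 9 of the 13 genes lay above 0, and after scaling by library size alone 12 lay below 0, since the median of all genes moved by -0.27. The 10 most abundant genes held 16.5% to 22.01% of the transcripts in the sections labelled Knockout and 10.1% to 15.3% in those labelled Wildtype. With library size alone 777 of 998 genes passed (77.9%, 92.5% of them lower, against 21.6% lower after TMM), among them 8 of the 13. Of these *Efna1* had -0.38 (edgeR adjusted p = 0.000273) and *Epha3* -0.31 (0.00153), and the other 6 ran from -0.30 for *Epha2* to -0.19 for *Efna5*. Relative to the shift of the panel, *Efna1* was at -0.10 ± 0.07 after TMM (edgeR adjusted p = 0.364), with rates of 4.44 to 6.76 (median 5.31) in the sections labelled Knockout and of 5.84 to 9.07 (median 7.16) in those labelled Wildtype, which overlapped. *Efnb2* ran from 4.85 to 8.22 (median 6.74) and from 6.14 to 9.76 (median 7.36), with 0.09 ± 0.09 after TMM (edgeR adjusted p = 0.545).

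In *Cdh5*-gated cells (12 and 9 sections) 0 of the 11 genes that passed the filter on low counts passed the test between the embryos, beside 6.7% of 731 genes, and *Efna5* and *Ephb6* were not tested. *Efna4* ran from 1.53 to 9.71 (median 6.07) in the sections labelled Knockout and from 4.92 to 12.5 (median 9.55) in those labelled Wildtype (-0.40 ± 0.20, edgeR adjusted p = 0.315). *Efnb2* ran from 6.44 to 19.3 (median 10.9) and from 7.0 to 13.0 (median 10.5), with 0.22 ± 0.17 (edgeR adjusted p = 0.571), *Ephb4* had 0.13 ± 0.15 (0.747) and *Efna1* 0.04 ± 0.18 (0.972). The ranges of all 4 genes overlapped between the embryos. Within files numbered 1 and 2 the difference was -0.67 and -0.15 for *Efna4*, 0.18 and 0.19 for *Efnb2*, -0.22 and 0.48 for *Ephb4*, and -0.22 and 0.29 for *Efna1*, so that the last pair changed sign between the numbers. In *Twist1*-gated cells (13 and 8 sections) 0 of 13 passed, beside 4.23% of 994 genes. *Epha4* ran from 4.79 to 9.14 (median 6.92) and from 5.91 to 17.7 (median 11.2), with -0.33 ± 0.14 (edgeR adjusted p = 0.258), and passed with library size alone (-0.55, edgeR adjusted p = 0.0175), where the panel moved by -0.21. Within files numbered 1 and 2 it was -0.76 and -0.06. *Ephb6* had 0.49 ± 0.19 (edgeR adjusted p = 0.18), with 0.47 and 0.51 within the numbers.

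The difference between embryos was also compared between *Cdh5*-gated and *Twist1*-gated cells. By edgeR 0 of 980 genes passed (0%), with 64 at an unadjusted p under 0.05 (6.53%), and 0 with DESeq2. Among the 13 genes the interaction was 0.42 ± 0.23 for *Efnb2* (edgeR adjusted p = 0.846), -0.50 ± 0.23 for *Efna4* (0.74) and -0.77 ± 0.36 for *Ephb6* (0.74). Of the lists, *Ptk2* (0.34, edgeR adjusted p = 0.00943) of 14 Eph signaling genes rose in the sections labelled Knockout over all cells. So did the Notch target *Hes1* (0.44, edgeR adjusted p = 0.00929) of 8 arterial genes. Neither 1 of 14 nor 1 of 8 is a larger share than the 12.5% of all genes that passed there in either direction. *Hes1* (0.57, edgeR adjusted p = 0.017) also rose in *Twist1*-gated cells, beside 4.23% of all genes that passed. In *Cdh5*-gated cells no gene of either list passed. Over all cells *Ptk2* had 0.39 (edgeR adjusted p = 0.0277) and *Hes1* 0.40 (0.0222) within files numbered 1. Within files numbered 2 neither passed (0.34 and 0.48, edgeR adjusted p = 0.172 for each), nor did they with library size alone (0.08 and 0.16). In *Twist1*-gated cells *Hes1* had 0.25 (edgeR adjusted p = 0.924) within files numbered 1, 0.79 (0.0142) within files numbered 2 and 0.36 (0.12) with library size alone. Markers of other cell types were summed as shares of all transcripts, a scale on which the median gene stood at -0.30 (log2) in the sections labelled Knockout. The summed rate of 14 endothelial markers was 107 ± 10.6 per 10000 (SD, n = 13) in the sections labelled Knockout and 122.8 ± 8.06 (n = 9) in those labelled Wildtype, a log2 difference of -0.20. That of 7 macrophage markers was 35.2 ± 1.92 and 45.7 ± 4.95 (-0.38), and that of 3 neural crest markers 13.2 ± 0.954 and 17.2 ± 1.57 (-0.37). That of 4 neural markers was 135 ± 16.6 and 91.4 ± 16.3 (0.56), that of 6 smooth muscle markers 120.6 ± 15.7 and 110.2 ± 22.8 (0.13), and that of 3 erythroid markers 219.8 ± 101.5 and 206 ± 45.4 (0.09). For 4 epithelial markers it was 38.5 ± 6.74 and 39.6 ± 10.99 (-0.04), and for 10 mesenchyme markers 176 ± 44.2 and 188 ± 89.7 (-0.10). Relative to the median gene these 8 lists stood from -0.07 for the macrophage and neural crest markers to 0.86 for the neural markers, with 0.43 for smooth muscle, 0.40 for erythroid, 0.26 for epithelial, 0.20 for mesenchyme and 0.11 for endothelial markers. Their part in the values over all cells was not tested.

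**Figure D4:**
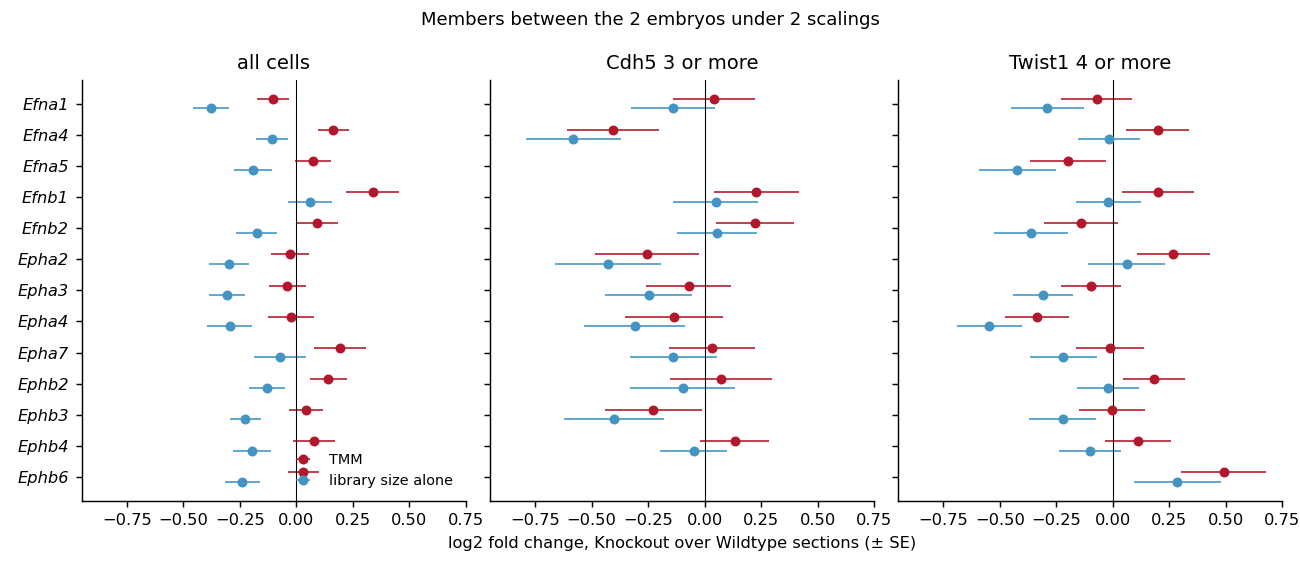
Log2 fold change (± SE) of each gene, sections labelled Knockout over Wildtype, in all cells, *Cdh5*-gated cells and *Twist1*-gated cells, after TMM (red) and after scaling by library size alone (blue). In all cells 9 of 13 red points lie above 0 and 12 of 13 blue points below it.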

How the data were processed

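Sections of 2 mouse embryos were imaged with CosMx. The authors segmented the cells, assigned transcripts to them and deposited the counts of each gene in each cell as whole numbers, without normalization. The probe set was 950 standard and 50 custom probes, of which 998 rows were used under their names in the tables. Aligners do not apply, and no genome build is given for the probes. The labels say both fresh frozen and paraffin-embedded. The legend of the study's figure counts more wild-type than double knockout sections, the reverse of the labels, whose genotype was used. Cells with under 10 transcripts or 10 genes were left out. Section totals of 169038 to 887904 transcripts, and 6 to 110 *Cdh5*-gated cells in a section, set the precision. No cell type annotation or doublet call was used.

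Gates on *Cdh5* (3 or more), *Twist1* (4) and *Sox10* (2) came with the question, and those on *Acta2*, *Epcam*, *Hbb* and *Sox2* were set at the smallest number, at least 2, that at most 5% of cells reach. Markers checked each gate. Counts were summed per section over at least 10 cells, and the sums were tested in R 4.3.3 with the package edgeR 4.0.16 (which builds on limma 3.58.1; TMM, filterByExpr, robust quasi-likelihood test, section as a block within sections, Benjamini-Hochberg over all genes tested). A call needed an adjusted p under 0.05 and, within sections, a 1.5-fold change. Means and ranges are rates per 10000 transcripts without the gate gene, and fold changes are those of the fit. The fits were tested on simulated data. DESeq2 1.42.0, library size alone, other gates, no filter, each embryo, each file number, each section left out and a band of 100 to 500 transcripts (chosen after seeing the data) were alternatives. Every ephrin and Eph gene is named in the text, with the 5 called genes of largest rise and of largest fall in *Efnb2*-positive and *Ephb4*-positive endothelium, the 3 called genes of largest rise in cells positive for each gene (those that fell are summarized), and 2 lists of arterial and Eph signaling genes. Expected co-detection was a Poisson probability from each cell's total, scaled per gene and section so that the expected number of positive cells equals the observed one, a refinement made after the design was written. Shares were thinned to 100 transcripts, leaving out shallower cells, in Python 3.11.15 (numpy 2.4.6). Promoters are from RefSeq, and all 13 genes matched by symbol. The genes, gates and lists were chosen with earlier results of these data known.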

Additional observations from a re-analysis of the deposited data

Results flagged for a closer look

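Within the 9 sections labelled Wildtype, and within each of the 3 sets of cells compared between embryos, each gene was examined for a section far from the others, in 39 groups of 9 or fewer sections. Chance alone sets about 1 in 20 such groups apart, and 3 were. Rates here include the gate gene in the total. *Ephb4* in *Cdh5*-gated cells was 6.06 per 10000 in section 22 (7 transcripts in 30 cells), against 14.9 in the next lowest section. Without that section the difference between embryos in *Cdh5*-gated cells was 0.04 ± 0.15 (edgeR adjusted p = 0.93). *Efna4* in *Twist1*-gated cells was 16.9 in section 16 (19 transcripts in 29 cells), against 9.64 in the next highest of 8 sections, and without it the difference between embryos was 0.26 ± 0.13 (edgeR adjusted p = 0.449). *Efna1* over all cells was 9.07 in section 17 (192 transcripts in 814 cells), against 7.48 in the next highest section, and the difference without it was -0.08 ± 0.07 (edgeR adjusted p = 0.554). In 0 of 91 comparisons of a gene in gated cells did every section of the embryos move in opposite directions.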

How the results depend on the processing

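Counts of the 13 genes called are given first under the settings described and then under each alternative that moved them by over 1.5 times. A count without the share of all genes beside it does not show whether these genes moved more than the panel. In *Cdh5*-gated cells 2 became 4 with the gate raised, 1 with it lowered and 7 without the fold minimum (19.9% of all genes). The 2 became 4 in cells with 100 to 500 transcripts (chosen after seeing the data). In *Twist1*-gated cells 0 became 1 with the gate raised and 6 without the fold minimum (16.6% of all genes). The 0 became 1 in the sections labelled Knockout alone. In *Acta2*-gated cells 0 became 4 without the fold minimum and 1 in the sections labelled Wildtype alone (*Efna4*). In *Hbb*-gated cells 0 became 3 with the gate raised, 3 without the fold minimum and 1 in the sections labelled Wildtype alone (*Epha7*). In *Sox2*-gated cells 0 became 1 with the gate raised, 1 with DESeq2, 1 without the fold minimum and 2 in the sections labelled Knockout alone (*Ephb2* and *Epha7*, the latter at -0.67, against 0.43 in those labelled Wildtype alone). Between embryos over all cells 0 became 8 with library size alone, 1 with DESeq2 (*Efnb1*), 1 in files numbered 2 alone (*Efna4*), and 0 to 1 with each section left out. In *Twist1*-gated cells between embryos 0 became 1 with library size alone (*Epha4*), beside 8.95% of all genes at that setting and 4.23% after TMM. The count of all genes between embryos over all cells was 125, 777 with library size alone, and 104 to 161 with a section left out.

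The 2 genes called in *Efnb2*-positive endothelium became 0 with *Cdh5* at 2 or more, 1 with *Cdh5* at 4 or more, 1 without the filter on low counts and 22 without the fold minimum, and the 0 called in *Ephb4*-positive endothelium became 2 with *Cdh5* at 2 or more and 1 without the filter. The 23 calls summed over the 13 comparisons of positive cells became 8 at 1 transcript and 61 at 3 transcripts. In all 142 of 176 such values stayed within 1.5 times, and of 284 values of single genes named or past the adjusted p, 24 lost and 33 gained the call. Among the 142 are counts of 0 that stayed 0, as with each of 21 sections left out between embryos in *Cdh5*-gated and in *Twist1*-gated cells. Values that did not pass could turn sign, such as *Ephb4* between embryos over all cells (-0.20 to 0.33). Except where the alternative itself removes a limit or cells, the cause was not tested. The raised *Epcam* gate (1 section) and 3 transcripts of *Efna5* and *Ephb6* (2 sections) could not be fitted. Sections could not be paired between the embryos, because the titles number the sections from 1 to 22 and no number is shared between them.

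Depth limits the rarer groups: *Epcam*-gated cells numbered 255, and *Efna5* and *Ephb6* in *Cdh5*-gated cells fell below the filter between embryos. With 1 embryo of each genotype, no value here separates genotype from embryo.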
